A study of Saccharomyces pastorianus Weihenstephan 34/70 with 7 samples.

Results

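Ribosome biogenesis factors are the proteins that build ribosomes without being part of the finished particle. A list of 60 yeast gene names was looked up in the probe annotation of the arrays, and 59 were found, among 5635 S. cerevisiae genes tested. The missing name, REA1, is another name of MDN1, which was found under that name. By their known roles, 35 of the 59 factors act on the large 60S subunit, 16 on the small 40S subunit and 8 on both subunits or in small nucleolar ribonucleoprotein particles (snoRNPs).

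The transcriptome of the lager yeast Weihenstephan 34/70, a hybrid S. pastorianus strain, was measured in the stationary phase of high gravity fermentations at 21 °Plato, with 1 Affymetrix Yeast Genome 2.0 array per RNA sample. The basic wort was supplemented with a glucose syrup or with a maltose syrup, and fermented as a control or with Flavourzyme, a fungal protease mixture with endo- and exopeptidase activities. There were 4 groups, all of this 1 strain: glucose control (glucose wort, no Flavourzyme, n = 2), maltose control (maltose wort, no Flavourzyme, n = 2), glucose Flavourzyme (n = 2) and maltose Flavourzyme (n = 1). The comparisons asked how the protease and the sugar of the wort changed gene expression, and whether the protease acted differently in the 2 worts.

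Ribosome assembly begins in the nucleolus, where a long precursor RNA is transcribed, modified by snoRNPs and cut. A large early particle, the small-subunit processome, forms on the part that becomes the 40S subunit, and a separate line of pre-60S particles matures through RNA helicases, GTPases and the giant ATPase Mdn1 before export. In growing yeast the genes of these factors are known to be expressed together and to be repressed when nutrients run short.

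All 59 factors had a mean log2 signal above 4.95. This value, which 95% of the S. pombe probe sets on the same arrays do not reach, served as a measure of background. Their means over the 7 arrays ran from 6.13 to 10.9. Each factor had 1 probe set, and none of these was of a kind that the maker marks as binding several transcripts. The probes were designed on S. cerevisiae, so the copies from both parents of the hybrid were not told apart. Each array measured RNA of a whole culture, and a change in the share of cells that express a gene cannot be told apart from a change in its RNA per cell. The glucose control arrays stood apart from each other (r = 0.928 over all genes tested) compared with the duplicates of the maltose control (r = 0.997) and of glucose Flavourzyme (r = 0.988). Some results that rest on them are therefore also given for each array, and the others rest on the mean of the pair. The sampling time was stated to differ with the wort and with Flavourzyme, and an effect of either cannot be told apart from that of the time. It was not stated whether duplicates came from separate fermentations, and p-values measure only the spread between these arrays.

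Across the 4 groups, the factors were highest in the glucose control more often than other genes were. The group mean was highest there for 24 of 59 factors (40.7%, against 16.3% of all genes tested), and lowest there for 2 (3.39% against 18%). None of the 60S factors was lowest in the glucose control and 16 of 35 were highest in it. Of the 16 40S factors, 4 were highest in the glucose control, 6 in the maltose control, and 2 were lowest in the glucose control. Glucose Flavourzyme was the lowest group for 25 factors (42.4% against 39.3%), and maltose Flavourzyme for 19 (32.2% against 19.9%). These counts are a description and use the mean of the 2 glucose control arrays, which stood apart, and 1 of the groups is a single array.

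**Figure D1:**
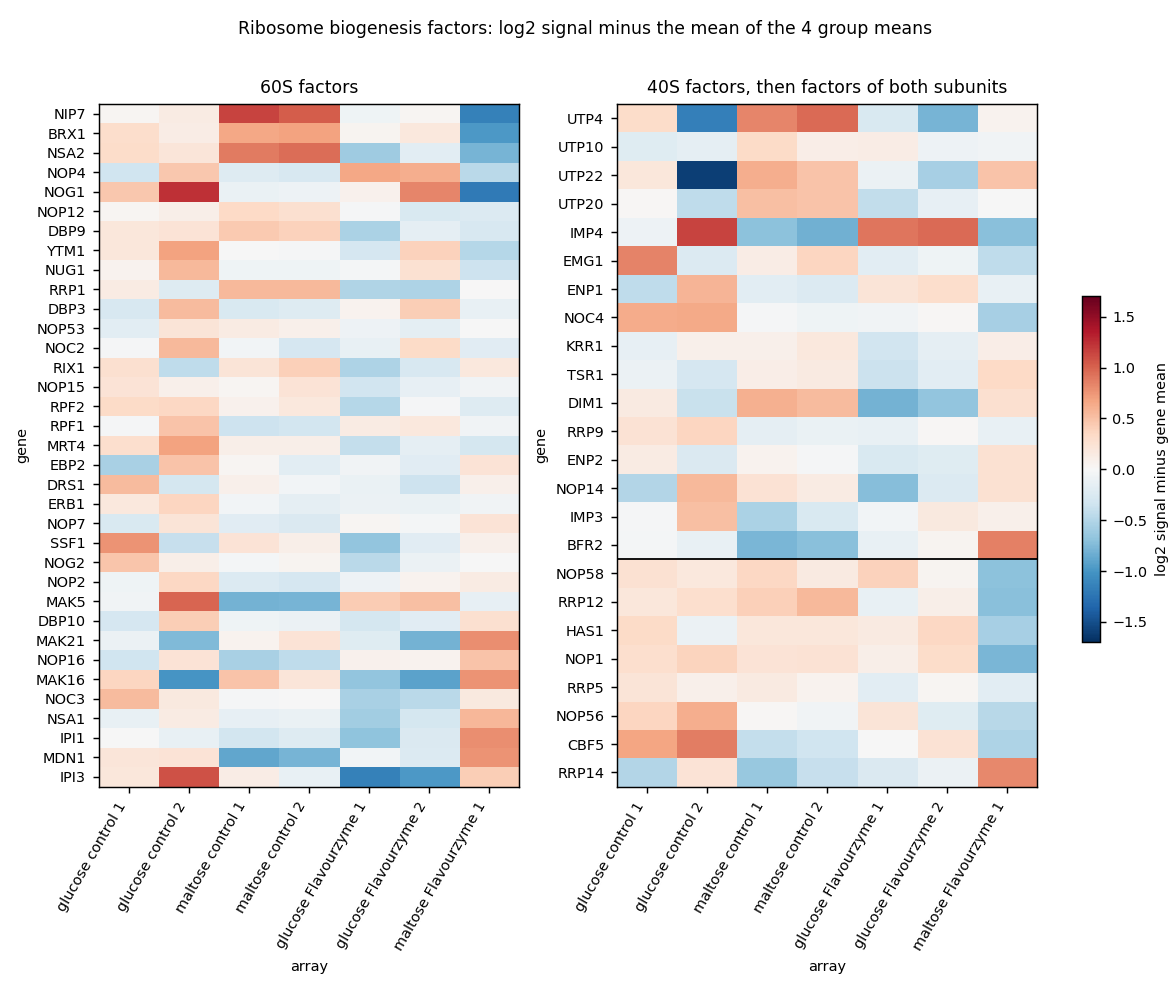
Log2 signal of each of the 59 factors (rows) on each of the 7 arrays (columns), as the difference from the mean of the 4 group means of that gene (colour bar, log2). The 60S factors are on the left, and 40S factors followed below the black line by the factors of both subunits are on the right; within a class, genes are ordered by the difference between their Flavourzyme effects in maltose and glucose wort. The maltose Flavourzyme column is below 0 for 7 of the 8 factors of both subunits, and glucose control replicates 1 and 2 differ for UTP22, UTP4 and IMP4.

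In maltose wort, 5 factors differed past the test between the single Flavourzyme array and the maltose control. That array has no spread of its own, and was assumed to vary like the groups with duplicates. NIP7, BRX1 and NSA2, all 3 of them pre-60S factors, fell, while MDN1 of the 60S and BFR2 of the 40S path rose. This was 8.47% of the factors, where 1.99% of all genes tested passed. Of the factors 3.39% rose and 5.08% fell, against 0.905% and 1.08% of all genes tested. A gene was called at a limma p-value, adjusted by the method of Benjamini and Hochberg over all genes tested, under 0.05. The median difference over the 59 factors was -0.07 on the log2 scale, beside -0.04 over all genes tested. Values of single factors ran from -2.24 to 1.60, and 16.9% of them differed by more than 1, against 15.2% of all genes tested.

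NIP7 (probe set 1775150_at), needed to process the precursor of the large-subunit RNAs, gave log2 signals of 8.76 and 8.87 in the glucose control, 9.87 and 9.76 in the maltose control, 8.66 and 8.76 in glucose Flavourzyme and 7.58 in the maltose Flavourzyme array. The maltose control arrays were the highest and the maltose Flavourzyme array the lowest, with no overlap between the maltose groups, and the 4 glucose arrays lay close together between them. The Flavourzyme difference in maltose wort was -2.24 (standard error 0.224, limma adjusted p = 0.0435), 4.72-fold lower.

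BRX1 (1771396_at), a Brix-domain protein of early pre-60S particles, had the same order of groups at the ends. Its log2 signals were 8.85 and 8.68 in the glucose control, 9.21 and 9.24 in the maltose control, 8.61 and 8.74 in glucose Flavourzyme and 7.58 in maltose Flavourzyme. Again the maltose groups did not overlap, as for most genes tested, while the arrays of the glucose groups did. The difference in maltose wort was -1.65 (standard error 0.227, limma adjusted p = 0.0435), 3.13-fold lower. EBP2, the known binding partner of BRX1, differed by 0.31 in maltose wort (adjusted p = 0.743).

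NSA2 (1771490_at), which joins pre-60S particles late in the nucleolus, measured 9.35 and 9.24 in the glucose control, 9.93 and 9.99 in the maltose control, 8.44 and 8.87 in glucose Flavourzyme and 8.26 in maltose Flavourzyme. Both Flavourzyme groups lay below their own controls without overlap, as did 49.2% of all genes tested in maltose wort and 19.3% in glucose wort. The difference was -1.70 in maltose wort (standard error 0.266, limma adjusted p = 0.0477) and -0.64 in glucose wort (standard error 0.217, adjusted p = 0.701), and only the first passed.

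MDN1 (1778865_at) encodes the giant AAA-type ATPase that pulls assembly factors off pre-60S particles. It ran the other way, at 10.23 and 10.25 in the glucose control, 9.14 and 9.24 in the maltose control, 9.97 and 9.79 in glucose Flavourzyme and 10.78 in maltose Flavourzyme. The maltose control arrays were the lowest and the maltose Flavourzyme array the highest of the 7. The rise in maltose wort was 1.60 (standard error 0.227, limma adjusted p = 0.0435), 3.03-fold.

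BFR2 (1775866_at), a protein of the small-subunit processome, was the 1 40S factor that passed. Its log2 signals were 9.23 and 9.15 in the glucose control, 8.50 and 8.56 in the maltose control, 9.14 and 9.31 in glucose Flavourzyme and 10.13 in maltose Flavourzyme, with the maltose groups at the ends as for MDN1. The rise in maltose wort was 1.60 (standard error 0.225, limma adjusted p = 0.0435), 3.03-fold.

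These 5 calls rest on few arrays. Without either maltose control array or either glucose Flavourzyme array the 5 calls were lost, as were those of all other genes tested. Without either glucose control array the 5 calls stayed. More factors and more of all genes tested were then called, since the spread is shared by the groups. Each such fit leaves a further group with 1 array. The differences kept their direction, as for NIP7 with -2.18 and -2.3 without maltose control replicates 1 and 2. An analysis of variance without limma's moderation called none of the 5, where 0.16% of all genes tested passed. It gave the 5 factors adjusted p from 0.0637 to 0.101 and the same differences. The single maltose Flavourzyme array also had the highest mean log2 difference between 3' and 5' probe sets of 5 control genes, 0.943, where the maltose control arrays had 0.817 and 0.868 and the glucose arrays 0.637 to 0.891. The part of this in the results was not tested.

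**Figure D2:**
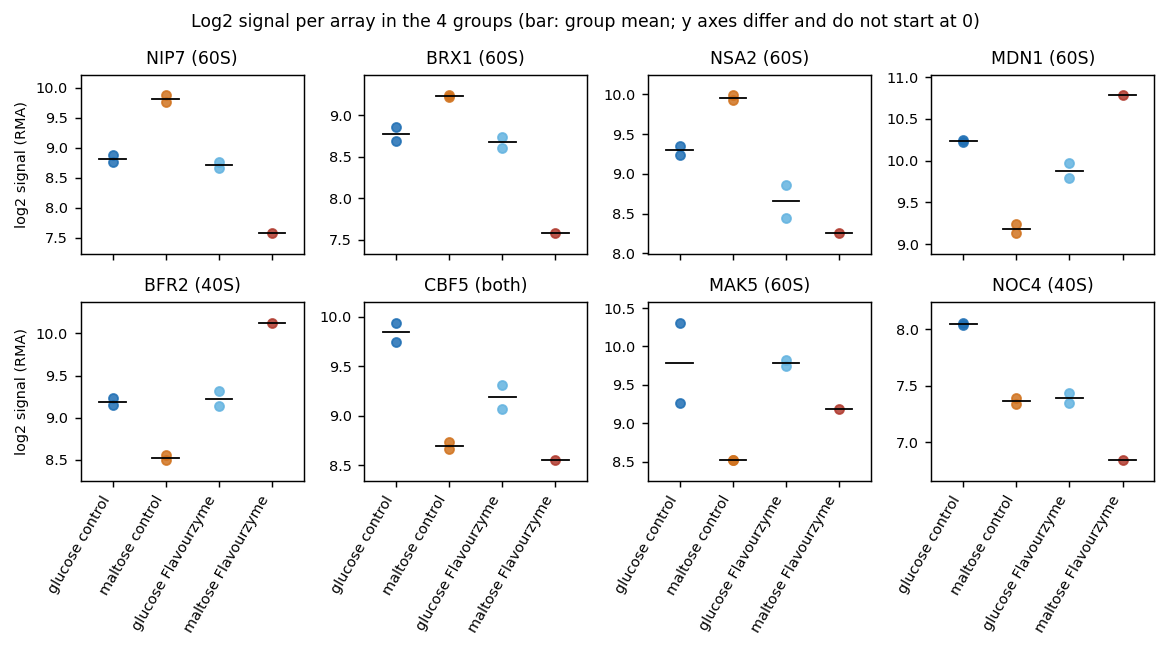
Log2 signal (RMA) of 8 factors on each array, by group; points are arrays and horizontal bars are group means, and the y axes differ and do not start at 0. NIP7, BRX1 and NSA2 are lowest and MDN1 and BFR2 highest on the maltose Flavourzyme array, while CBF5 is highest in the glucose control.

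The factors shared by both subunits lay low in maltose Flavourzyme as a class, although none of the 8 passed the test there. Their group mean was lowest in maltose Flavourzyme for 7 of 8 (87.5%, against 19.9% of all genes tested), and the median difference between Flavourzyme and control in maltose wort was -0.60. The lowest values of this class were those of RRP12, an export factor, at -1.19 (standard error 0.237, limma adjusted p = 0.0687), and NOP1, the fibrillarin that methylates rRNA within box C/D snoRNPs, at -1.01 (0.229, adjusted p = 0.0838). The other box C/D core proteins NOP58 and NOP56 differed by -0.94 and -0.45, and the helicase HAS1 by -0.76, with adjusted p of 0.112, 0.410 and 0.185.

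Signals of NOP1 were within 9.62 to 9.91 on the 6 other arrays and 8.75 on the maltose Flavourzyme array. RRP12 ranged from 8.75 to 9.43 on the others and was 8.17 there, and NOP58 from 9.18 to 9.52 with 8.44 there. For these 3 genes, and for NOP56, CBF5, HAS1 and RRP5, the maltose Flavourzyme array was below every other array. For RRP5 it was so by little (9.0824, beside 9.0858 in glucose Flavourzyme replicate 1). Maltose Flavourzyme was the lowest group for 19.9% of all genes tested. RRP14, a nucleolar protein of both paths, was the exception of the class at 11.83 in maltose Flavourzyme, above all other arrays (10.37 to 11.23). Its difference in maltose wort was 1.33 (standard error 0.353, limma adjusted p = 0.107).

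**Figure D3:**
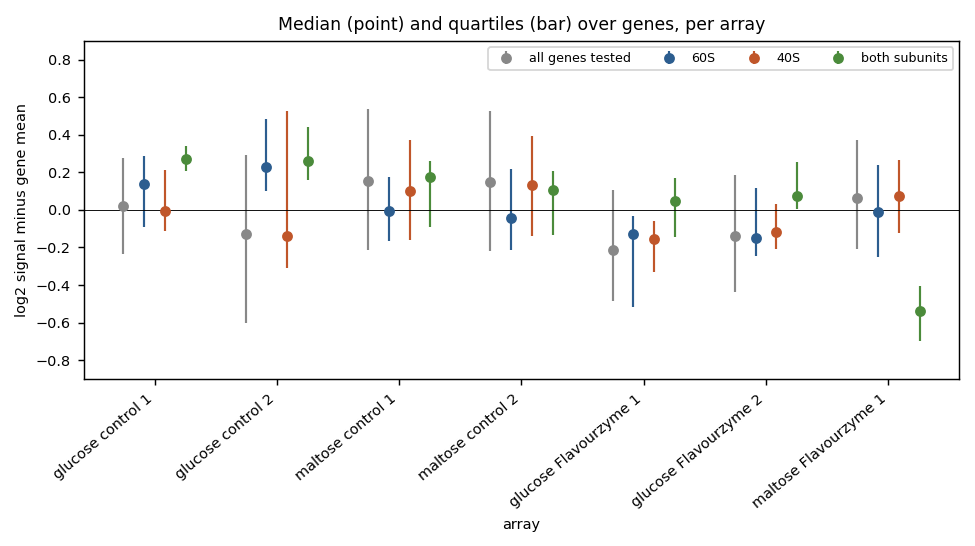
Median (point) and quartiles (bar) over genes of the log2 signal minus the mean of the 4 group means of the gene, for all genes tested and the 3 classes of factors, on each of the 7 arrays. The median of the factors of both subunits lies at 0.27 and 0.26 in the glucose control and at -0.54 in maltose Flavourzyme, while the medians of 60S and 40S factors stay between -0.16 and 0.23 on every array.

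Among the assembly complexes and enzyme families of the 60S path, the other factors gave the following values in maltose wort, none of which passed. Within the Rix1 complex, which works beside Mdn1 on pre-60S particles, the Flavourzyme differences were 1.05 for IPI1 (standard error 0.273, adjusted p = 0.103), 0.42 for IPI3 and -0.13 for RIX1. Of the subcomplex around NSA1, the difference was 0.69 for NSA1 itself, 0.43 for MAK16, 0.27 for RPF1 and -0.55 for RRP1, with adjusted p of 0.192, 0.719, 0.649 and 0.273. NOP7, ERB1 and YTM1, which form 1 complex that Mdn1 removes, gave 0.45, 0.05 and -0.47. The GTPases NOG1, NOG2 and NUG1 gave -1.10, -0.02 and -0.28, and the DEAD-box helicases DBP3, DBP9, DBP10, DRS1 and MAK5 ranged from -0.69 for DBP9 to 0.66 for MAK5.

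In glucose wort no factor passed the test for Flavourzyme, and 0% of all genes tested did. Limma gave 9 factors with an unadjusted p under 0.05 (393 of all genes tested), and all 9 were lower with Flavourzyme. The smallest adjusted p among the factors was 0.701. Of the values, 49 of 59 were negative, with a median of -0.21 beside -0.08 over all genes tested, where 40.2% of genes were positive. The distance between these medians, -0.14, rested on the control array used: it was -0.05 without glucose control replicate 2 and -0.31 without replicate 1. Both Flavourzyme arrays lay below both glucose control arrays for 23 factors (39.0%, against 19.3% of all genes tested) and above both for 2 (3.39% against 10.4%).

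IPI3, a Rix1 complex subunit, had the lowest of these differences. It measured 7.23 and 8.11 in the glucose control, 7.16 and 6.91 in the maltose control, 5.88 and 6.05 in glucose Flavourzyme and 7.45 in maltose Flavourzyme. The glucose Flavourzyme arrays were the lowest of the 7 and did not overlap with any group. The difference in glucose wort was -1.70 (standard error 0.324, limma adjusted p = 0.701). NOC3, a pre-60S transport protein that also binds replication origins, at -0.85 (0.207), and NOC4, a 40S factor with a related domain, at -0.66 (0.177), had the next smallest p before adjustment and the same adjusted p.

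On the other side, the 3 positive differences with the smallest p were those of NOP4 (0.58), IMP4 (0.41) and UTP10 (0.20), with adjusted p of 0.733, 0.851 and 0.856. The value of IMP4 changed sign with the control array used, being 1.03 without glucose control replicate 2 and -0.205 without replicate 1. Leaving out glucose control replicate 1 gave 7 factors called (9.99% of all genes tested passed in that fit) and leaving out replicate 2 gave 17 (33.3% of all genes), of which IPI3, NOC3, NOC4, CBF5 and MRT4 were called both times.

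**Figure D4:**
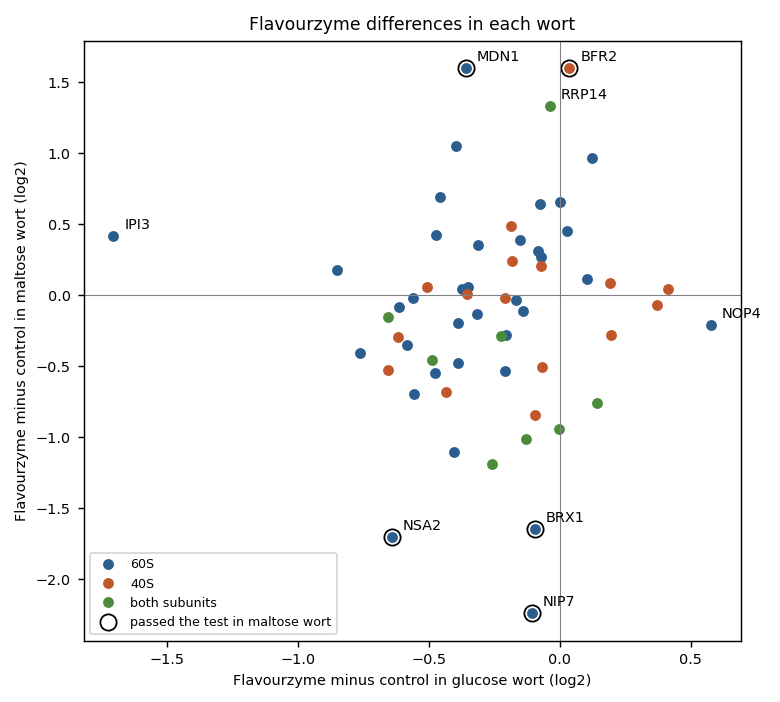
Difference between Flavourzyme and control in maltose wort (y, log2) against the same difference in glucose wort (x, log2) for the 59 factors, coloured by class; circled points passed the test in maltose wort. Most points lie left of 0 on the x axis, and the circled genes lie at -2.24 to -1.65 or at 1.60 on the y axis.

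Between the worts without Flavourzyme, few factors passed although many genes did. The test was passed by 6 of the 59, or 10.2%, where 28.6% of all genes tested passed. NIP7 was higher in the maltose control (1.69% of factors, against 18.7% of all genes), and MDN1, MAK5, NOC4, BFR2 and CBF5 were lower (8.47% against 9.81%). The median over the factors was -0.14 beside 0.20 over all genes tested, and 16 of 59 factors lay above the median of all genes.

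CBF5 (1772442_at), the pseudouridine synthase of box H/ACA snoRNPs, was highest in the glucose control at 9.75 and 9.94. The maltose control had 8.67 and 8.73, glucose Flavourzyme 9.07 and 9.31, and maltose Flavourzyme 8.55. No group overlapped with the glucose control, and 27.1% of all genes tested were lower in the maltose control without overlap. The wort difference was -1.15 (standard error 0.197, limma adjusted p = 0.0152), and it had the smallest adjusted p of the factors in this comparison.

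NIP7 and MDN1, described above for maltose wort, also differed between the controls. NIP7 was higher in the maltose control by 1.00 (standard error 0.183, limma adjusted p = 0.0167), and MDN1 differed by -1.05 (0.185, adjusted p = 0.0157), with no overlap of arrays in either gene. Such separation of the controls was common, with 43.6% of all genes tested higher and 27.1% lower in the maltose control. BFR2 differed by -0.66 (0.184, adjusted p = 0.0457). These comparisons share the maltose control arrays with those of Flavourzyme in maltose wort, so a low or high maltose control enters both.

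MAK5 (1769852_at), a DEAD-box helicase of the 60S path, measured 9.26 and 10.31 in the glucose control, 8.52 and 8.52 in the maltose control, 9.74 and 9.82 in glucose Flavourzyme and 9.18 in maltose Flavourzyme. The glucose control arrays were far apart, but both lay above the maltose control. The wort difference was -1.26 (standard error 0.356, limma adjusted p = 0.0476), and it was -0.74 against glucose control replicate 1 and -1.79 against replicate 2.

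NOC4 (1774976_at), the partner of NOP14 in the processome, measured 8.04 and 8.06 in the glucose control, 7.40 and 7.34 in the maltose control, 7.35 and 7.44 in glucose Flavourzyme and 6.84 in maltose Flavourzyme. Its 2 groups with 1 change from the glucose control lay side by side, and the group with both changes was lowest. The wort difference was -0.68 (standard error 0.177, limma adjusted p = 0.0383), while NOP14 itself differed by 0.16 (adjusted p = 0.770).

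Without either maltose control array the 6 calls were lost, as were nearly all calls over all genes tested. Without either glucose Flavourzyme array only CBF5 kept its call, and far fewer of all genes tested were called than in the full fit. Leaving out glucose control replicate 1 gave 38 factors called (66% of all genes tested passed) and leaving out replicate 2 gave 11 (48.9% of all genes). Probe sets for ribosomal RNA had a mean log2 signal of 11.2 and 11.7 in the glucose control. It was 8.70 and 8.74 in the maltose control, 13.2 and 12.2 in glucose Flavourzyme and 9.61 in maltose Flavourzyme. This mean was higher on all 4 glucose arrays than on all 3 maltose arrays, but the order did not hold for every probe set. Some probe sets for large-subunit RNAs were higher in maltose Flavourzyme than on both glucose control arrays. Whether these signals follow the amount of ribosomal RNA in the cells was not tested, nor was their part in the differences of the factors.

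With Flavourzyme in both worts, no factor passed between maltose and glucose wort, where 2.91% of all genes tested did (1.81% higher and 1.1% lower in maltose wort). Limma gave 22 of 59 factors with an unadjusted p under 0.05, and 1735 of the 5635 genes tested. The smallest adjusted p were those of NIP7 (-1.13, adjusted p = 0.058), BRX1 (-1.09, 0.0596) and NOP1 (-0.97, 0.0697) on the lower side and IPI1 (1.26, 0.0603), MDN1 (0.90, 0.0766) and BFR2 (0.90, 0.0766) on the higher side. The lowest of all was IMP4, a Brix-domain partner of the processome protein Mpp10, at -1.65, and the highest MAK16 at 1.56. Without either glucose control array, 30 factors and 54.1% of all genes tested passed in this comparison, which does not use those arrays for its difference but does for its spread.

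Whether the Flavourzyme difference itself depended on the wort was tested by the interaction term. No factor passed, where 0.0355% of all genes tested did, and 14 of 59 factors had an unadjusted p under 0.05, as had 1076 of the 5635 genes tested. NIP7 came nearest, with an interaction of -2.13 (standard error 0.289, limma adjusted p = 0.0614), followed by MDN1 at 1.96 (0.292, adjusted p = 0.0683), BFR2 at 1.57 (0.291, 0.0883) and BRX1 at -1.55 (0.293, 0.0902). IPI3 had an interaction of 2.13 (0.513, adjusted p = 0.119), made up of a value below its control in glucose wort and a small positive one in maltose wort, and NSA2 one of -1.06 (0.343, 0.195). That NIP7, MDN1, BFR2, BRX1 and NSA2 passed in maltose wort and not in glucose wort is therefore not shown to be a difference between the worts. Without glucose control replicate 1, 23 factors and 31.3% of all genes tested passed, and without replicate 2, 18 factors and 39.0% of all genes.

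Averaged over both levels of Flavourzyme, the wort effect called 2 factors at an adjusted p under 0.05 and an absolute log2 difference over 1.301 (3.39%, where 8.80% of all genes tested passed). Both were lower in maltose wort, as were 3.57% of all genes tested. IMP4 (1779535_at) measured 8.99 and 10.23 in the glucose control, 8.38 and 8.27 in the maltose control, 9.997 and 10.05 in glucose Flavourzyme and 8.37 in maltose Flavourzyme. All 3 maltose arrays were below all 4 glucose arrays, and the effect was -1.47 (standard error 0.320, limma adjusted p = 0.0227). NOG1 (1778063_at), a GTPase of pre-60S particles, had its lowest signal, 8.11, in maltose Flavourzyme, with 9.20 and 9.22 in the maltose control, 9.77 and 10.56 in the glucose control and 9.38 and 10.13 in glucose Flavourzyme.

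The NOG1 effect was -1.30 (standard error 0.288, limma adjusted p = 0.0235) and lay at the fold threshold itself. Without the fold threshold, 3 factors were higher (MAK21, RRP1 and DIM1) and 6 lower (IMP4, NOG1, MAK5, NOC4, NOP1 and CBF5), where 34.3% of all genes tested passed. Leaving out 1 array at a time moved the count past both thresholds between 0 and 5, with 5 only when glucose control replicate 1 was left out. The Flavourzyme effect averaged over both worts called no factor, where 0.0355% of all genes tested passed, and 20 of 59 factors had an unadjusted p under 0.05, as had 901 of the 5635 genes tested.

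The 60S and 40S factors differed most between the controls. The median wort difference without Flavourzyme was -0.19 over the 35 60S factors and 0.12 over the 16 40S factors, against 0.20 over all genes tested. Of the 60S factors, 25 were lower in the maltose control, and of the 40S factors 7. In glucose wort the Flavourzyme median was -0.35 for 60S and -0.14 for 40S factors, and in maltose wort it was -0.02 and -0.01. With Flavourzyme, the wort median was 0.15 for 60S and 0.31 for 40S factors.

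Taken array by array, the median deviation of the 60S factors minus that of the 40S factors was 0.14 and 0.37 in the glucose control, -0.11 and -0.18 in the maltose control, 0.02 and -0.04 in glucose Flavourzyme and -0.08 in maltose Flavourzyme. The glucose control arrays were the highest of the 7, and they lay further apart than the other duplicates did. The pooled SD within groups, 0.0995, includes this pair and so cannot judge its distance. The gap between the classes in the controls, -0.31, was -0.42 without glucose control replicate 1 and -0.36 without replicate 2. In glucose wort, the gap of -0.21 for Flavourzyme was -0.05 without glucose control replicate 2 and -0.27 without replicate 1. As members of a class are not replicates, no test was made of these gaps.

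The glucose control replicates were therefore compared gene by gene. The median absolute difference between them was 0.43 over the factors (0.52 over all genes tested), against 0.08 in the maltose control and 0.21 in glucose Flavourzyme. Replicate 1 was the higher one for 23 of 59 factors (39.0%, against 57.8% of all genes tested). A difference of more than 1 on the log2 scale was found for 10 factors (16.9% against 21.5%), of which 6 belonged to the 16 40S factors, 4 to the 35 60S factors and none to the factors of both subunits. No factor differed by more than 1 within the maltose control or glucose Flavourzyme.

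UTP22, a processome protein that also binds the transcription factor Ifh1, had the largest gap, with 7.56 in replicate 1 and 5.76 in replicate 2. It measured 7.98 and 7.84 in the maltose control, 7.26 and 6.79 in glucose Flavourzyme and 7.84 in maltose Flavourzyme. Replicate 2 was the lowest of the 7 arrays, and replicate 1 lay between glucose Flavourzyme and the maltose arrays. The maltose control was higher by 0.36 against replicate 1 and by 2.15 against replicate 2.

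UTP4, of the complex that binds the nascent precursor first, had a gap in the same direction with 7.32 and 5.84, and wort differences of 0.58 and 2.06. Its replicate 1 lay above the maltose Flavourzyme array (7.07), unlike that of UTP22. In the 60S path, MAK16 (6.60 and 5.24) and SSF1 (7.78 and 6.64) were also lower in replicate 2, as was the methyltransferase EMG1 (8.82 and 7.74). The other 5 of the 10 were higher in replicate 2: IMP4 (8.99 and 10.23), MAK5 (9.26 and 10.31), NOP14 (8.41 and 9.45), EBP2 (8.23 and 9.27) and ENP1 (8.47 and 9.48). Both directions thus occurred among processome proteins.

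**Figure D5:**
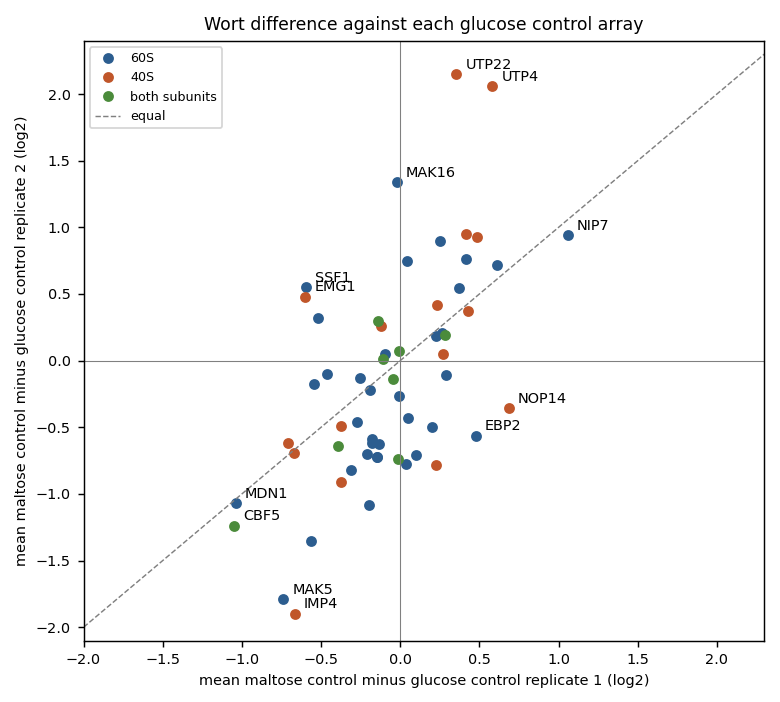
Mean of the maltose control arrays minus glucose control replicate 2 (y, log2) against the same minus replicate 1 (x, log2) for the 59 factors, coloured by class, with the line of equality dashed. The maltose control mean is shared by both axes. NIP7, MDN1 and CBF5 lie near the line, while UTP22 and UTP4 lie at 2.15 and 2.06 on the y axis and below 0.60 on the x axis.

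The choice of the glucose control array set the sign of the wort difference for 17 of 59 factors (28.8%, against 24.4% of all genes tested) and the sign of the Flavourzyme difference in glucose wort for 29 (49.2% against 54.5%). The median over the factors of the maltose control minus the glucose control was -0.10 with replicate 1 and -0.17 with replicate 2, while over all genes tested it was 0.11 and 0.30. With either array the median of the 59 factors thus lay below that of all genes. By class, the 60S median was -0.136 with replicate 1 and -0.268 with replicate 2. The 40S median was 0.227 with replicate 1, above that of all genes, and 0.155 with replicate 2, below it. Flavourzyme in glucose wort gave a median of -0.21 against replicate 1 and -0.32 against replicate 2, beside -0.17 and -0.02 over all genes tested. Replicate 1 was nearer to the maltose control than replicate 2 for 42 factors (71.2% against 66.5%).

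The rest of the assembly pathway was read from 4 further lists. These held 45 other 60S factors, 57 other 40S factors (of 59 names), 9 proteins of snoRNP assembly and 11 regulators of ribosome synthesis. None of these genes passed for Flavourzyme in either wort or for the interaction. Of the Flavourzyme differences in glucose wort, 41 of 45 were negative for other 60S and 46 of 57 for other 40S factors, with medians of -0.27 and -0.29, beside -0.08 over all genes tested.

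Between the worts without Flavourzyme, 4 other 60S factors were higher and 5 lower in the maltose control, 20.0% of that list where 28.6% of all genes tested passed. Among the higher ones were RIA1, a GTPase of late pre-60S particles (0.91, limma adjusted p = 0.0227), YVH1, a phosphatase that releases the stalk placeholder Mrt4 (1.00, 0.0227), and ACL4, a chaperone of a ribosomal protein (0.94, 0.0264). REH1, a zinc-finger protein of late pre-60S particles, was lower (-0.87, 0.0321). Of the other 40S factors 7.02% passed: 3 were higher, among them the helicase DHR2 (1.78, 0.0227), and RCL1 was lower (-1.32, 0.0305). In snoRNP assembly 22.2% passed, against 28.6% of all genes tested. These were TAH1 (1.30, 0.0139) and the H/ACA protein GAR1 (1.16, 0.0492), both higher. CBF5, which works with GAR1 in the same particle, was lower, but the call of GAR1 lay at the threshold. Without either maltose control array, nearly all calls of this comparison over all genes tested were lost.

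The regulators had 7 of 11 genes past the test between the controls, 6 of them lower in the maltose control. This was 63.6% called and 54.5% lower, beside 28.6% and 9.81% of all genes tested. The list was chosen with earlier results of these data known, so these shares are only a description. The regulator calls also rest on both maltose control arrays, without either of which nearly all calls over all genes tested were lost. DOT6, a repressor that binds promoters of ribosome biogenesis genes, differed by -1.88 (standard error 0.287, limma adjusted p = 0.0126), the kinase SCH9 by -1.20 (0.212, 0.0158) and IFH1, a coactivator of ribosomal protein genes, by -1.14 (0.203, 0.0160). CRF1, a corepressor of the same genes, was higher by 1.65 (0.279, adjusted p = 0.0147). With Flavourzyme in both worts, CRF1 was again higher in maltose wort (2.19, adjusted p = 0.0458), as were LOC1 of the 60S path (1.52, 0.0455) and FCF2 of the 40S path (2.10, 0.0494). The calls of CRF1, LOC1 and FCF2 with Flavourzyme were lost without either maltose control array or either glucose Flavourzyme array. So were those of all other genes tested.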

How the data were processed

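Array images were read with Affymetrix Microarray Suite v5.0, and the deposited values are log2 signals that the authors computed with rma in R/affy (background correction, quantile normalization, median polish). The version of affy is not given in the sources used here. Of 10928 probe sets, 5685 named 1 S. cerevisiae gene. Where a gene had several (48 genes), the brightest on average was kept, leaving 5635 genes, without a filter on low signals. The number of arrays limits the precision.

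Group means were fitted by limma 3.58.1 (R 4.3.3; eBayes, 3 residual and 2.78 prior degrees of freedom), with two-sided p-values adjusted over all genes tested. The single maltose Flavourzyme array was assumed to vary like the others. Calls needed an adjusted p under 0.05. For the wort and Flavourzyme main effects they also needed a log2 difference over 1.301, the threshold in the methods. As it equals -log10(0.05), its meaning as a fold is uncertain.

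The factors, their classes and the pathway lists were chosen with earlier results of these data known. Full statistics were given for called factors (up to 6 per direction and class), or, without calls, for the 3 with the smallest p in each direction, and for up to 4 genes of each pathway list. The other factors were named for their class or complex, or after their values were seen. The fit was tested on simulated data. Alternatives were quantile normalization over S. cerevisiae probe sets, median centring, a filter on low signals, analysis of variance without moderation, a replicate block and leaving out each array. Promoter sequences were not analysed here.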

Additional observations from a re-analysis of the deposited data

How the results depend on the processing

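With quantile normalization over the S. cerevisiae probe sets alone, 8 factors were called for Flavourzyme in maltose wort (5 as reported), 12 between the worts without Flavourzyme (6), 4 between the worts with it (0) and 4 for the interaction (0), while the share of all genes called was 7.51%, 31.7%, 6.26% and 2.96% in place of 1.99%, 28.6%, 2.91% and 0.0355%, and the gap between 60S and 40S medians with Flavourzyme was -0.0241 (-0.163). This scaling moved the median of all genes from 0.204 to 0.0226 between the controls, and the split of all genes into higher and lower from 1056 and 553 to 966 and 820, or 865 and 664 with median centring. With Flavourzyme the split went from 102 and 62 to 158 and 195, and for the wort effect from 295 and 201 to 127 and 263. The analysis of variance without moderation called 0 factors for Flavourzyme in maltose wort, 0 for the wort effect (2), 5 between the controls and 0 elsewhere. In the first 3 of these comparisons it called 0.16%, 2.45% and 10.3% of all genes tested.

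Arrays with the same replicate number shared only the number (correlations of their deviations 0.00736, 0.182 and 0.102). With the replicate block, 0 factors were called for Flavourzyme in maltose wort, 1 for the wort effect and 4 between the controls, in place of 5, 2 and 6 (adjusted p of the 5 from 0.09 to 0.104), and other counts stayed at 0. Of all genes tested, 0.0355%, 7.4% and 26.5% passed in these 3 comparisons. The cause of these shifts was not tested. When 1 array was left out, the number of calls over all genes tested also moved in each comparison. Leaving out 1 array at a time gave 0 to 22 factors for Flavourzyme in maltose wort, 0 to 17 in glucose wort, 0 to 38 between the worts without Flavourzyme, 0 to 30 with it, 0 to 23 for the interaction, 0 to 5 for the wort effect and 0 for the Flavourzyme effect. The gap between 60S and 40S medians ranged from -0.0133 to 0.0925 for Flavourzyme in maltose wort, from -0.272 to -0.0533 in glucose wort, from -0.423 to -0.254 between the controls, from -0.163 to -0.124 with Flavourzyme and from -0.0241 to 0.211 for the interaction. The IMP4 difference in glucose wort became -0.205 without glucose control replicate 1 and 1.03 without replicate 2. Of the values of single named factors, 311 kept direction and side of the threshold, 68 lost and 39 gained it, and 1 changed sign. Leaving out the maltose Flavourzyme array leaves no value for comparisons that use it.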
